A study of Mus musculus with 4 samples.

Results

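The transcripts of ion channels, calcium pumps and the proteins that gate them were followed in AML12 cells, a mouse hepatocyte line, after transfection with a Chrna4 plasmid. Symbols were matched by name pattern to the families of potassium, sodium, calcium and chloride channels, purinergic receptors, TRP and Piezo channels, calcium ATPases, calcium release channels, store-operated entry, the mitochondrial uniporter, calmodulin and neurocalcin. The pattern took 116 of the 13422 listed genes. It also took 9 genes named Tmem160 to Tmem168, which share only the letters of an older name of the anoctamins and are not known as channels, so 107 channel and pump genes remained. The 4 P2ry genes among these encode G protein-coupled nucleotide receptors and not channels.

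Cells in both groups carried a GFP plasmid. Control 1 and Control 3 received pCMV6-AC-GFP, and Chrna4 1 and Chrna4 2 received PAV-TBG-P2A-GFP-Chrna4. The plasmid names differ in more than Chrna4, and the promoter that drives each insert is not given beyond those names. All cells descend from CD-1 mouse line MT42, were at passages 3 to 5, and grew in medium with serum, insulin, transferrin, selenium and dexamethasone. Nothing in the labels tells whether the replicates of a group were grown or transfected apart. The p-values therefore rest on a spread that may be purely technical.

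Ion channels let ions pass down their gradients, and calcium pumps use ATP to move calcium back out of the cytosol. In hepatocytes, hormones and nucleotides acting on Gq-coupled receptors raise inositol trisphosphate, which opens the Itpr channels of the endoplasmic reticulum. Emptied stores are sensed by Stim proteins, which open Orai channels in the plasma membrane, while SERCA pumps (Atp2a genes) refill the stores and plasma membrane pumps (Atp2b genes) expel calcium. Chrna4 itself encodes an alpha subunit of neuronal nicotinic receptors, which are cation channels opened by acetylcholine.

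Listed genes drew 31301396 to 32228360 reads per library, and 1 read was worth 0.0308 to 0.0325 CPM, the unit of the deposited values, in which reads are scaled by library size. Reads on Chrna4 numbered 1 and 3 in the controls, against 2678 and 2290 after its transfection. For pairs of libraries, the chi-square of reads per gene (genes with at least 20 reads) averaged 13.6 for the controls and 4.04 for the Chrna4 libraries. Across groups it averaged 52.8 to 59.7. Over the members alone it averaged 10.5 for the controls, 3.61 for the Chrna4 libraries and 17.6 to 20.1 across groups. The medians, in the same order, lay closer together, at 3.03, 1.63 and 4.84 to 5.59 over all genes. Over the members they were 2.40, 1.61 and 2.56 to 6.52. Of 12 hepatocyte markers 9 were listed. Hnf4a stood at 217 to 248 CPM and Apob at 1132 to 1323 CPM, but Alb, the main plasma protein of hepatocytes, reached only 7.93 to 19.0 CPM. The bile duct markers Krt19 and Spp1 stood at 297 to 532 and 322 to 474 CPM. Of the 7 hepatocyte markers tested, Alb, Ttr and Apoe were lower with Chrna4 and 0 were higher, and the part of this in the results that follow was not tested. Markers of stellate cells and endothelium were each listed for 1 gene only, Col1a1 and Stab2, at 0.358 CPM or less.

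The channel and pump genes moved in both directions and at about the rate of all genes. A gene was tested when its mean reached 1 CPM, and it was called when the Benjamini-Hochberg adjusted p of limma, fitted over all 11298 such genes, was under 0.05. Of the 107 genes 66 were tested, and 4 were higher and 6 lower with Chrna4. These 10 calls are 15.2% of the 66, against 15.9% of all tested genes (9.26% higher and 6.66% lower). Of the 9 Tmem genes 8 were tested, and 0 were called by limma, edgeR or DESeq2, with 1 unadjusted limma p under 0.05. The 4 that rose were the ATP-gated channel gene P2rx7, the calcium-activated chloride channel gene Ano2, the mechanosensitive channel gene Piezo1 and the SERCA2 gene Atp2a2. Those that fell included the neuronal calcium sensor gene Ncald, the plasma membrane calcium pump gene Atp2b4, the inward rectifier gene Kcnj16, the anoctamin gene Ano8 and the calcium channel subunit gene Cacna2d1. The median log2 change of the 66 was -0.04, against -0.00 for all tested genes, and their median absolute change was 0.15 against 0.12. Libraries of the groups did not overlap for 44 of the 66, with 18 higher and 26 lower, against 57.5% of all tested genes, 28.7% higher and 28.8% lower. With library totals as the scaling, which shifts the median gene by -0.05, 2 were higher and 8 lower, against 7.19% and 10.4% of all genes (17.6% in all). Without Control 1, 7 were higher and 9 lower, against 14.3% and 11.5% of all genes (25.8% in all). Without Control 3, 9 were higher and 7 lower, against 15.2% and 11.5% (26.6% in all). Without Chrna4 1, 3 were higher and 3 lower, against 5.66% and 3.54% (9.21% in all). Without Chrna4 2, 2 were higher and 2 lower, against 5.35% and 2.87% (8.21% in all).

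**Figure D1:**
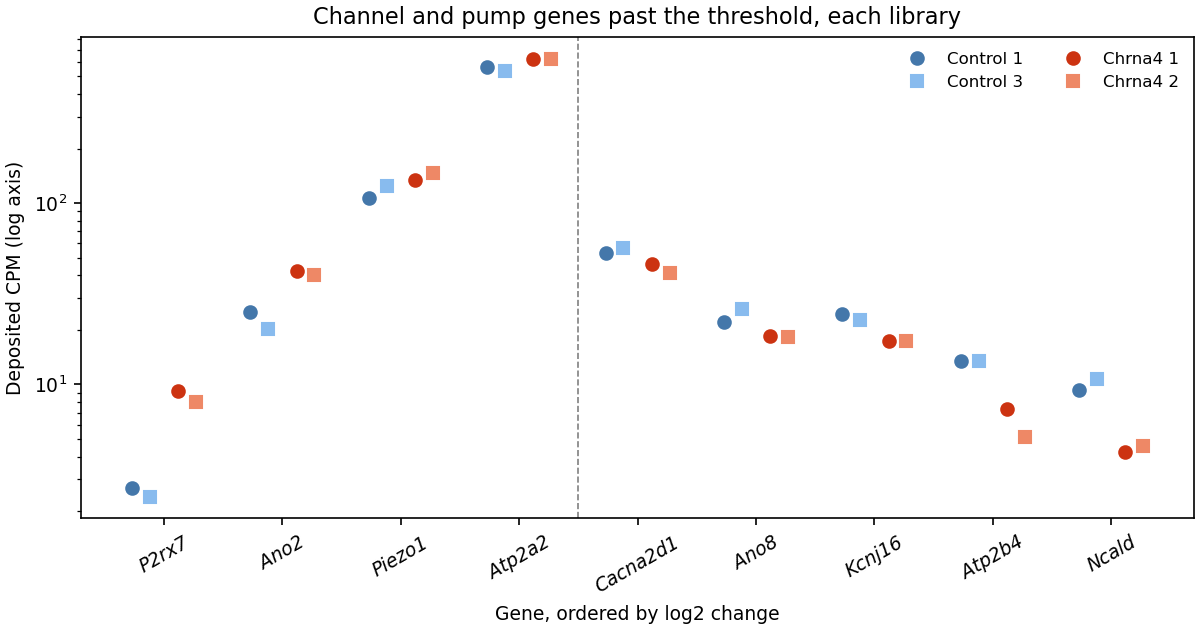
Deposited CPM (log axis) of 9 of the 10 called genes in the 4 libraries, ordered by log2 change, with a dashed line between genes that rose and fell. Each point is 1 library, blue for Control and red for Chrna4. The libraries of the groups do not overlap for any of them, as for 57.5% of all tested genes. The separation is widest for P2rx7, with 2.41 to 2.68 CPM in the controls and 8.04 to 9.23 CPM with Chrna4.

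**Figure D2:**
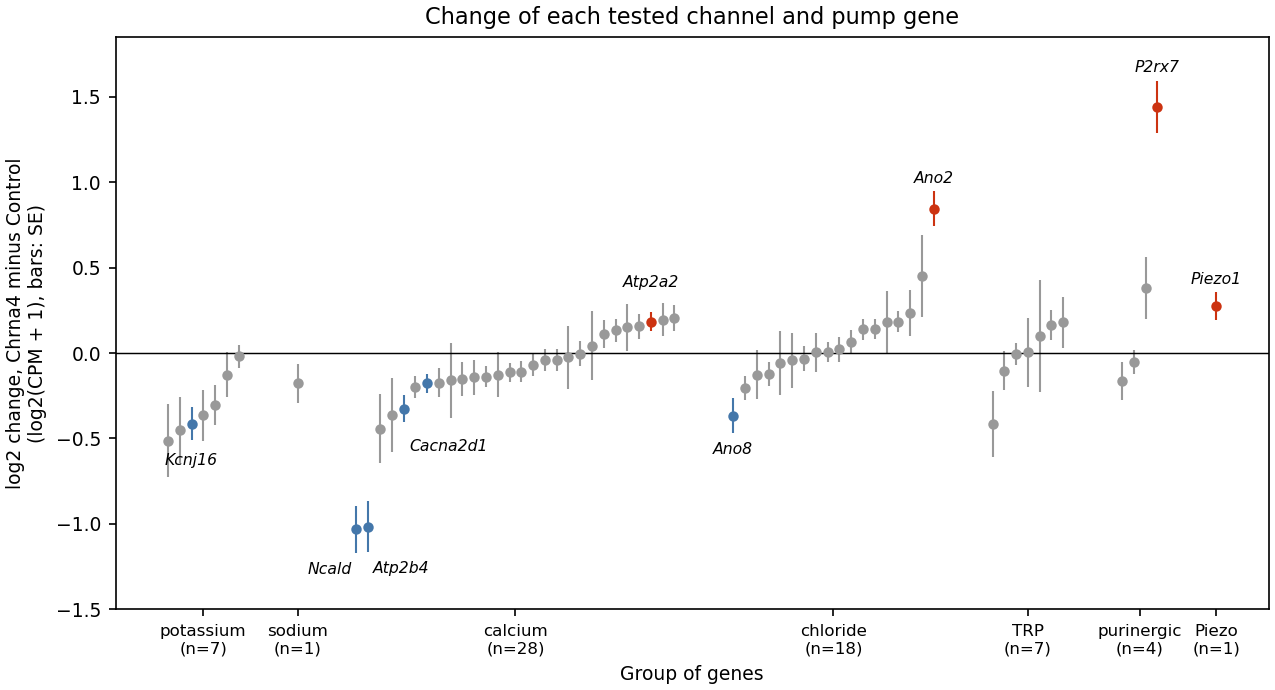
Log2 change (Chrna4 minus Control, on log2(CPM + 1)) of the 66 tested channel and pump genes, in columns by ion or family. Each point is 1 gene with its SE, red where called higher, blue where called lower and grey otherwise, and 9 of the 10 called genes are labelled. The 7 tested potassium channel genes, of 24, all lie below 0 with the 4 libraries, with a median of -0.36. Kcnab1 and Kcnk5 do not when Control 1 is left out, nor does Kcnab1 without Chrna4 1. Over all 11298 tested genes, 5736 lie below 0. Chloride channel genes lie on both sides, with a median of 0.01.

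Among nucleotide receptors, 1 of the 4 tested genes was called, P2rx7, against 15.9% of all tested genes. P2rx7 (ENSMUSG00000029468, chromosome 5, 122643911 to 122691432, plus strand, GRCm38) encodes an ATP-gated cation channel best known from macrophages, where it drives inflammasome activation. It stood at 2.68 and 2.41 CPM in the controls and at 9.23 and 8.04 CPM with Chrna4, from 87, 78, 284 and 254 reads. Both Chrna4 libraries lay above both controls. The mean rose from 2.54 ± 0.19 to 8.64 ± 0.843 CPM (SD, n = 2), a 3.39-fold difference. On the log2(CPM + 1) scale, which understates changes of low genes, this was 1.44 ± 0.15 (SE), with a limma adjusted p of 4.66e-05. It was the 71st largest rise of all tested genes. Of 7 macrophage markers 2 were listed. Their summed level was 5.27 and 4.45 CPM in the controls and 3.77 and 4.40 CPM with Chrna4. Ptprc, the pan-leukocyte marker, was at 0.06 to 0.25 CPM. Which cells carried the rise of P2rx7 was not tested. In bulk RNA, a rise in some cells and a smaller rise in every cell cannot be told apart.

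The ATP-gated channel gene P2rx4, also on chromosome 5, had the highest level of the family, at 9.55 CPM per kilobase of exon against 0.94 for P2rx7. It stood at 66.3 and 70.3 CPM in the controls and 64.3 and 67.4 CPM with Chrna4, a log2 change of -0.05 with a limma adjusted p of 0.674. P2rx5 stood at 2.00 and 2.50 against 3.48 and 2.98 CPM, with an adjusted p of 0.193 in the limma fit. Per kilobase of exon, P2rx7 made up 4.18% and 3.52% of these 3 genes in the controls and 12.7% and 11.1% with Chrna4. The G protein-coupled receptor gene P2ry2, which responds to ATP and UTP in hepatocytes, stood at 14.8 and 13.3 against 12.8 and 12.1 CPM and was not called (limma adjusted p 0.366).

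The RefSeq start region of P2rx7 is shown because it is the most changed member, beside those of Ano2, Piezo1, Kcnj16 and Cacna2d1, the other called genes whose RefSeq and GENCODE starts lie within 16 bases of each other. Each runs from 250 bases before to 50 bases after the start (RefSeq, GRCm38.p6), on the plus strand except for Piezo1: P2rx7 at chr5:122643677-122643976, Ano2 at chr6:125690169-125690468, Piezo1 at chr8:122551280-122551579, Kcnj16 at chr11:110967783-110968082 and Cacna2d1 at chr5:15934441-15934740. Capitals mark matches, on either strand, to 5 motifs searched by their letters: ISRE (TTTC and TTTC with any 2 bases between), GAS (TTC and GAA with any 3 bases between), kappaB (GGG and TTTCC with any 2 bases between), AP-1 (TGA and TCA with any 1 base between) and Sp1 (GGGCGG).
P2rx7: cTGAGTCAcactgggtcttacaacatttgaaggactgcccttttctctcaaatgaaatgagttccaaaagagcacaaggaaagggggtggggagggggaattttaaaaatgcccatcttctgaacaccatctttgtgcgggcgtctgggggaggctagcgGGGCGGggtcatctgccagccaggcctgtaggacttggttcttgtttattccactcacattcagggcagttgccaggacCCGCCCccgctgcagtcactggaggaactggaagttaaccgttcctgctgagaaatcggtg
Ano2: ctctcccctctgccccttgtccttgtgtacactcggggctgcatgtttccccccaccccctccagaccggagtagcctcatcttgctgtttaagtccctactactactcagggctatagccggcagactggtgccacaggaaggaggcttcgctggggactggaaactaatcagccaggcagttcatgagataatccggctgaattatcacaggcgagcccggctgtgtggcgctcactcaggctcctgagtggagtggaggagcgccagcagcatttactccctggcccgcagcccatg
Piezo1: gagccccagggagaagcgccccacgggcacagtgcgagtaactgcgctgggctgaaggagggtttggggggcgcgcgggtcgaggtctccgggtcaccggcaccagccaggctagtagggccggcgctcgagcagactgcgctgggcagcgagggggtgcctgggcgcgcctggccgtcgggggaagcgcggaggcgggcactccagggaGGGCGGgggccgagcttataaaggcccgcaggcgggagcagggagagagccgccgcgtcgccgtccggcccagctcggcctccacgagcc
Kcnj16: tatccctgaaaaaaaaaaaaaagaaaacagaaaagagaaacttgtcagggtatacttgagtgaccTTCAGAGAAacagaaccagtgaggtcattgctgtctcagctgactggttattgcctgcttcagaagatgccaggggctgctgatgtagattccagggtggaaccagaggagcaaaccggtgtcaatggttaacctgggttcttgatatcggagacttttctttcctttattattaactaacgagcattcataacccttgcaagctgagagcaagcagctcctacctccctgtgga
Cacna2d1: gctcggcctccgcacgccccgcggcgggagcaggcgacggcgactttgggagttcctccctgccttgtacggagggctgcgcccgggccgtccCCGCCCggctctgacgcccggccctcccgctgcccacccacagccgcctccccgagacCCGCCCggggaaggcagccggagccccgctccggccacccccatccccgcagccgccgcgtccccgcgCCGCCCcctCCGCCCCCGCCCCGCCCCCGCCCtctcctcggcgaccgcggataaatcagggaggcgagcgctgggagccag
P2rx7 held 1 AP-1 match and 2 Sp1 matches, Piezo1 held 1 Sp1 match, Kcnj16 held 1 GAS match, Cacna2d1 held 7 Sp1 matches, some of them adjacent, and Ano2 held none of the 5. Over 32851 RefSeq start regions of the same length, AP-1 letters occurred in 7.81%, Sp1 in 35.7%, GAS in 8.3%, ISRE in 3.44% and kappaB in 1.63%. The windows differ in base composition, from 44.3% G and C in Kcnj16 to 80.0% in Cacna2d1. These are matches of letters and do not show binding.

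Piezo1 (ENSMUSG00000014444, chromosome 8, 122481698 to 122551329, minus strand) encodes a cation channel opened by membrane stretch. It stood at 107 and 125 CPM in the controls and 133 and 146 CPM with Chrna4, with the higher control close to the lower Chrna4 library. Its log2 change was 0.27 ± 0.08 (SE), with a limma adjusted p of 0.0362. The call was lost with library totals (limma adjusted p 0.0863) and without Chrna4 2 (0.301). Ctu2, on the opposite strand, covers 24.6% of its exon bases, and the sources used here do not give whether counting used strand. Ctu2 stood at 29.4, 27.8, 27.6 and 28.7 CPM in Control 1, Control 3, Chrna4 1 and Chrna4 2.

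TRP channels are a broad family of cation channels for stretch, temperature and lipid signals. Their Trpc, Trpm and Trpv branches had 13 members, 7 tested and 0 called by limma, edgeR or DESeq2, and 0 with an unadjusted limma p under 0.05. Trpm7, a magnesium- and calcium-permeable channel with its own kinase domain, had the highest level per kilobase, 16.7 CPM, with 182, 196, 180.3 and 197 CPM in Control 1, Control 3, Chrna4 1 and Chrna4 2. Its log2 change was -0.00. The gene named Trpc2 shares exon bases on the same strand with Xndc1 and with another identifier of the same name, so its counts are uncertain.

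Calcium handling held 34 genes, 28 of them tested, with 1 higher and 4 lower. These calls are 17.9% of the 28, against 15.9% of all tested genes. The median log2 change was -0.11, with 8 genes above 0 and 20 below, against 5562 above and 5736 below over all tested genes. Calls were in the pumps, the sensors and the voltage-gated subunits. The release channels, the uniporter and store-operated entry had 0 calls by limma, edgeR or DESeq2, and of these 12 genes only Itpr2 had an unadjusted limma p under 0.05. The number of calcium calls changed when 1 library was left out, as did the share of all tested genes called.

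**Figure D3:**
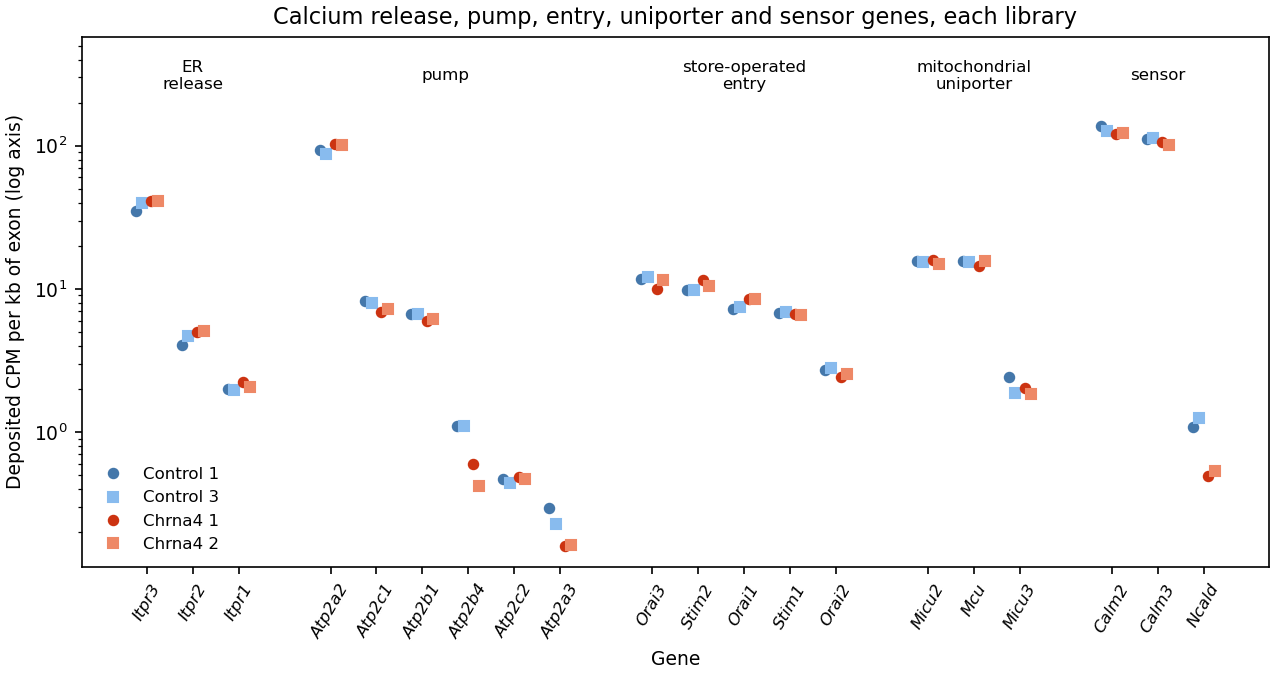
Deposited CPM per kilobase of exon (log axis) of tested calcium release, pump, store-operated entry, uniporter and sensor genes. Each point is 1 library, blue for Control and red for Chrna4. Of the genes drawn, Calm2 is highest, with a mean of 127 CPM per kilobase, and the groups stand farthest apart for Atp2b4 and Ncald.

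The plasma membrane pump gene Atp2b4 fell. Atp2b4 (ENSMUSG00000026463, chromosome 1, 133699457 to 133801041, minus strand) stood at 13.5 and 13.4 CPM in the controls and 7.31 and 5.16 CPM with Chrna4. The controls agreed closely, and Chrna4 2 was the lowest library. The mean went from 13.5 ± 0.0776 to 6.24 ± 1.52 CPM (SD, n = 2), or 0.463 of the control level. Its log2 change was -1.02 ± 0.15 (SE), with a limma adjusted p of 0.000642, the 16th largest fall of all tested genes. Atp2b1, with a higher level per kilobase (6.35 against 0.80 CPM), stood at 101 and 102 against 90.2 and 93.7 CPM, which did not pass the test (limma adjusted p 0.157). Per kilobase of exon, Atp2b4 made up 14.2% and 14.1% of the pair in the controls and 9.15% and 6.4% with Chrna4.

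Of the pumps that fill the endoplasmic reticulum, Atp2a2 (ENSMUSG00000029467, chromosome 5, 122453513 to 122502225, minus strand) carried at least 99.5% of the family's level per kilobase in every library. It stood at 563 and 534 CPM in the controls and 626 and 619 CPM with Chrna4, a ratio of 1.14. The groups did not overlap, and the SD of the Chrna4 libraries was 4.69 CPM (n = 2). The log2 change was 0.18 ± 0.06 (SE), with a limma adjusted p of 0.0446 just under the threshold. The limma adjusted p was 0.0599 with no filter, 0.132 with library totals, 0.413 without Chrna4 1 and 0.381 without Chrna4 2. Atp2a3, the form of blood and endothelial cells, stood at 1.57 and 1.21 against 0.845 and 0.855 CPM (limma adjusted p 0.299). Atp2a1, the skeletal muscle form, had 18, 12, 6 and 14 reads and was not tested.

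The Golgi pump Atp2c1, which loads calcium and manganese into the secretory pathway, stood at 80.3 and 77.0 against 66.7 and 70.0 CPM. It missed the threshold with a limma adjusted p of 0.0646, while the authors' deposited table gives 0.0496. With library totals the limma value was 0.0226, and the gene was also called without Control 3. Aste1 covers 18.9% of its exon bases. The other Golgi pump, Atp2c2, stood at 1.42 to 1.56 CPM over all libraries.

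The inositol trisphosphate receptors are the release channels of hepatocytes. Itpr3 made up 85.1% to 85.8% of the 3 receptors per kilobase in every library. It stood at 316 and 362 CPM in the controls and 373 and 368 CPM with Chrna4 (limma adjusted p 0.211). Itpr2, the main form of liver tissue, stood at 60.1 and 69.2 against 73.6 and 75.1 CPM (limma adjusted p 0.10). Itpr1 stood at 36.9 and 36.3 against 41.2 and 38.1 CPM (limma adjusted p 0.393). For all 3 both Chrna4 libraries lay above both controls, as they did for 28.7% of all tested genes, and limma called none of the 3. The log2 changes of Itpr3 and Itpr2 were 0.23 and 0.30 without Control 3, and 0.04 and 0.10 without Control 1. The ryanodine receptor gene Ryr1 had 0 and 1 reads in the controls and 7 and 3 with Chrna4.

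Store-operated entry was represented by 5 genes, and none was among the calls of limma, edgeR or DESeq2. The sensor Stim1 stood at 71.0 and 71.6 CPM in the controls and 69.8 and 68.7 CPM with Chrna4. Stim2, the sensor of small store losses, stood at 50.4 and 50.2 against 58.9 and 53.5 CPM (limma adjusted p 0.195). Of the pore genes, Orai1 was the higher with Chrna4, at 19.5 and 19.6 against 16.7 and 17.2 CPM (limma adjusted p 0.205). Orai2 and Orai3 were lower on average, at 14.7 to 17.1 and 21.3 to 26.0 CPM over all libraries, with adjusted p of 0.390 and 0.336 in limma.

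The mitochondrial uniporter genes had the smallest median absolute change of the calcium families, 0.06 on the log2 scale. Mcu, the pore, stood at 108 and 107 CPM in the controls and 99.6 and 109 CPM with Chrna4. The gatekeeper Micu2 spanned 46.3 to 49.4 CPM, and the minor form Micu3 spanned 11.4 to 14.9 CPM. For all 3 the groups overlapped, and limma adjusted p ran from 0.584 to 0.982.

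The sensor gene Ncald fell. Ncald (ENSMUSG00000051359, chromosome 15, 37366175 to 37792570, minus strand) encodes neurocalcin delta, a calcium-binding protein best known from neurons. It stood at 9.36 and 10.7 CPM in the controls and 4.23 and 4.56 CPM with Chrna4, from 304, 347, 130 and 144 reads. Every Chrna4 value was under 0.5 of the lower control. The ratio of means was 0.437 and the log2 change -1.03 ± 0.14 (SE), with a limma adjusted p of 0.000316. It was the 13th largest fall of all tested genes. Of 7 neuronal markers 4 were listed, at a summed 12.7 and 9.83 CPM in the controls and 13.1 and 14.9 CPM with Chrna4. Of the 3 tested, 0 were called by limma, edgeR or DESeq2, with 2 unadjusted limma p under 0.05. Which cells carried the fall of Ncald was not tested.

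Calm2 and Calm3 encode calmodulin, the general calcium sensor. Calm2 stood at 201 and 185 CPM in the controls and 178 and 179.9 CPM with Chrna4, and Calm3 at 271 and 273 against 257 and 246 CPM. Both lay lower with Chrna4 in each library, as did 28.8% of all tested genes, and were not called (limma adjusted p 0.261 and 0.199). The log2 change of Calm2 was -0.17 without Control 3 and -0.05 without Control 1. Genes this alike can share reads, so their counts are uncertain to that extent.

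Voltage-gated calcium channel genes had 10 members, 6 of them tested. Cacna2d1 (ENSMUSG00000040118, chromosome 5, 15934691 to 16374511, plus strand) encodes the alpha2delta subunit that carries pore subunits to the membrane and binds gabapentin. It fell from 53.1 and 56.5 CPM to 46.1 and 41.1 CPM, a log2 change of -0.32 ± 0.08 (SE) with a limma adjusted p of 0.0171. Chrna4 2 was the lowest library, and without it the limma adjusted p was 0.235. Its start region is among the sequences above. Per kilobase of exon, the tested pore genes Cacna1h, Cacna1a and Cacna1e had levels of 0.26, 0.11 and 0.08 CPM, below those of the auxiliary genes Cacnb3 and Cacna2d1 at 10.6 and 3.96 CPM.

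Chloride channels held 21 genes, 18 of them tested, with 1 higher and 1 lower, both anoctamins. These calls are 11.1% of the 18, against 15.9% of all tested genes. Ano2 (ENSMUSG00000038115, chromosome 6, 125690419 to 126040126, plus strand) encodes a calcium-activated chloride channel best known from olfactory neurons. It stood at 24.9 and 20.2 CPM in the controls and 42.1 and 40.0 CPM with Chrna4. The gap between groups was wider than the gap between the controls. The mean rose 1.82-fold, from 22.6 ± 3.37 to 41.1 ± 1.5 CPM (SD, n = 2), with a log2 change of 0.84 ± 0.10 (SE) and a limma adjusted p of 0.000144. Of the 6 anoctamins it made up 5.18% and 3.74% per kilobase in the controls and 8.3% and 7.79% with Chrna4.

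The anoctamins of highest level per kilobase, Ano1 and Ano6, were not called. Ano1, the calcium-activated chloride channel of epithelia, stood at 269 and 310 CPM in the controls and 262 and 267 CPM with Chrna4 (limma adjusted p 0.259). Ano6, a lipid scramblase that also conducts ions, stood at 329 and 379 against 359 and 380.0 CPM (limma adjusted p 0.596). Ano8 (ENSMUSG00000034863, chromosome 8, 71476019 to 71485963, minus strand), a tether between the endoplasmic reticulum and the plasma membrane, fell from 22.2 and 26.0 to 18.6 and 18.3 CPM. Its log2 change was -0.37 ± 0.10 (SE), with a limma adjusted p of 0.0302. The adjusted p of limma was 0.101 without Control 3, 0.0924 without Chrna4 1 and 0.129 without Chrna4 2. The number of chloride calls changed when 1 library was left out, as did the share of all tested genes called.

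Of the ClC family, which holds plasma membrane chloride channels and the chloride-proton exchangers of endosomes and lysosomes, 7 of 7 were tested and 0 called by limma, edgeR or DESeq2, and 3 had an unadjusted limma p under 0.05. Clcn5, of early endosomes, had the highest level per kilobase, 18.4 CPM, and stood at 206 and 196 against 218 and 225 CPM (limma adjusted p 0.124). Clcn7, of lysosomes, came nearest to the threshold among those that lay higher, at 84.5 and 86.1 against 97.0 and 97.0 CPM (limma adjusted p 0.0652). Clcn4-2 lay lower, at 57.5 and 59.2 against 52.0 and 49.1 CPM (limma adjusted p 0.0767). The 5 Lrrc8 genes, subunits of the volume-regulated anion channel, had 0 calls by limma, edgeR or DESeq2, with 1 unadjusted limma p under 0.05. Lrrc8d spanned 102 to 115 CPM. Lrrc8a shares 66.2% of its exon bases on the same strand with Gm28035, so its counts are uncertain. The 3 Clca genes were under the filter.

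Potassium channels held 24 genes, of which 7 reached the filter and 1 was called. That is 14.3% of the 7, against 15.9% of all tested genes. Kcnj16 (ENSMUSG00000051497, chromosome 11, 110968033 to 111027968, plus strand) encodes the inward rectifier subunit Kir5.1. It stood at 24.3 and 22.6 CPM in the controls and 17.4 and 17.3 CPM with Chrna4. The Chrna4 libraries nearly coincided, with an SD of 0.0776 CPM (n = 2). The ratio was 0.74 and the log2 change -0.41 ± 0.10 (SE), with a limma adjusted p of 0.0117. That p was 0.0529 without Chrna4 1 and 0.0648 without Chrna4 2, and with either of them left out 0 potassium genes were called.

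All 7 tested potassium genes had a log2 change under 0 with the 4 libraries, with a median of -0.36. Over all 11298 tested genes, 5736 had a change under 0. The other 17 potassium genes were under the filter, and the authors' deposited table calls Kcnip4 and Kcnh4 among them higher. The change of Kcnab1 was 0.01 without Control 1 and 0.03 without Chrna4 1, and that of Kcnk5 was 0.03 without Control 1. The calcium-activated Kcnn1 and Kcnn4 changed by -0.36 and -0.51 with limma adjusted p of 0.127 and 0.134. The voltage-gated Kcnd1 and Kcnh7 changed by -0.30 and -0.45 with limma adjusted p of 0.110 and 0.147. Kcnab1, an auxiliary subunit, had the highest level per kilobase of the potassium genes, 9.44 CPM, and its groups overlapped. Kcnk5, a background channel, changed by -0.13 and its groups overlapped too. Of 4 sodium channel genes only Scn8a was tested, at 12.8 and 12.3 against 10.4 and 11.6 CPM (limma adjusted p 0.342).

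**Figure D4:**
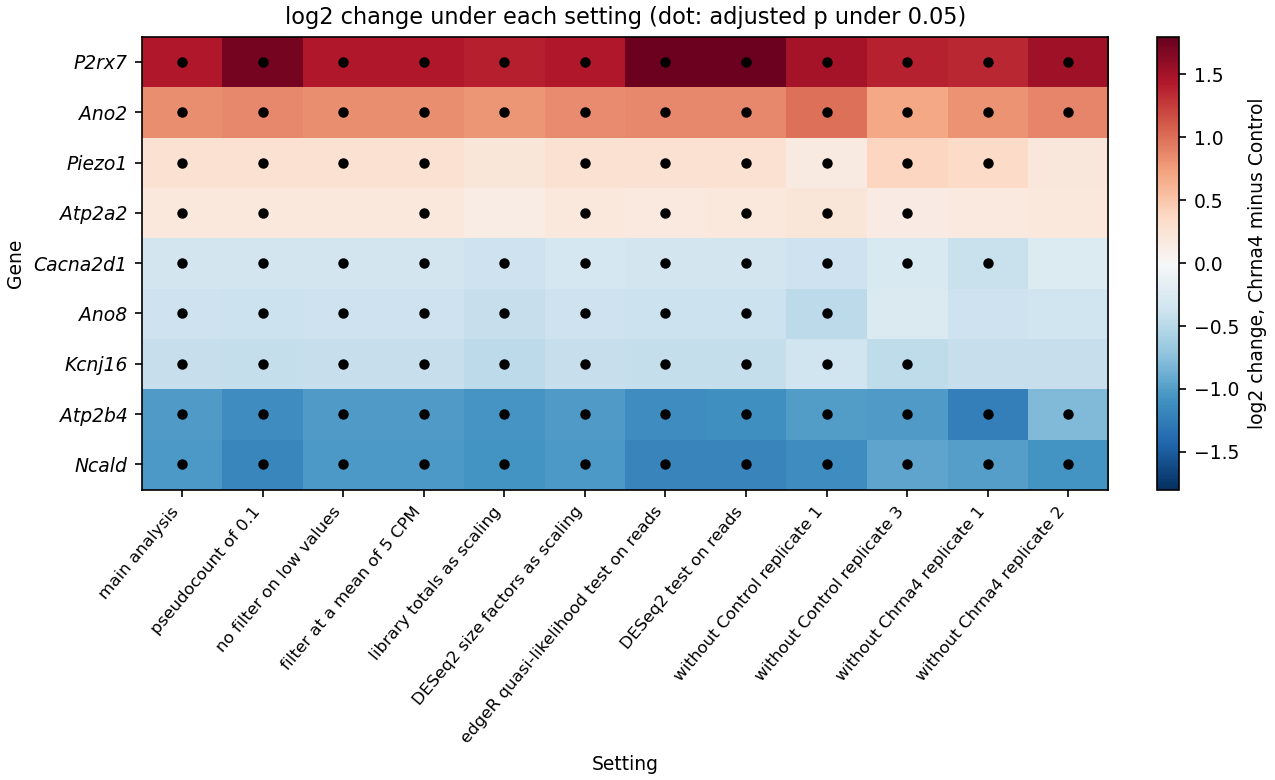
Log2 change (Chrna4 minus Control) of 9 of the 10 called genes under the settings tried, 1 column per setting, with colour for the change and a dot where the adjusted p was under 0.05. P2rx7, Ano2, Atp2b4 and Ncald have a dot in every column, and the other 5 lack it in at least 1.

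Levels per kilobase of exon, as means over the 4 libraries, were high for Calm2 at 127, Calm3 at 108, Atp2a2 at 96.3, Ano1 at 44.3, Itpr3 at 39.3 and Ano6 at 29.5 CPM per kilobase. These genes include sensors, the store-filling pump and the store release channel Itpr3. At the other end, 34 of the 107 were under 1 CPM in every library. Just inside the filter lay Atp2a3, with a mean of 1.12 CPM, and just outside it Clca3, with 0.990 CPM.

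The authors' deposited table calls 16 of the genes at an adjusted p under 0.05, 7 higher and 9 lower, against 16.8% of all 13422 genes (9.24% higher and 7.61% lower). These comprise the 10 called by limma, Atp2c1, and 5 genes under 1 CPM. Trpm1, a melastatin-type TRP channel of the retina, had 3 and 4 reads in the controls and 20 and 13 with Chrna4. Kcnip4, which binds Kv4 channels, had 17 and 14 against 33 and 37 reads, and Kcnh4 had 0 and 6 against 15 and 12. In the other direction Cacnb1, a calcium channel beta subunit, had 17 and 36 against 3 and 10 reads, and the sodium channel gene Scn2a1 had 15 and 16 against 5 and 3. The adjusted p in the authors' deposited table ran from 0.00885 to 0.0377. The groups do not overlap for any of the 5, which were taken by that p on these same values. Of all tested genes, 57.5% do not overlap either, but those have a mean of at least 1 CPM and these 5 do not. Without the filter, limma called 13.0% of all genes and, of these 5, Kcnip4 alone.

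A further 12 lists of genes that work beside the channels gave 133 tested genes, of which 5 were higher and 15 lower, or 15.0%, against the 15.9% of all genes. The calcium-binding sensor and S100 list had the most calls, with 0 higher and 5 lower of 15. Among them S100a6, an EF-hand protein, fell from 1006 and 875 CPM to 728 and 674 CPM, with a limma adjusted p of 0.0018. Bile duct markers lay lower beside it, at a summed 1258 and 1351 CPM in the controls and 955 and 931 CPM with Chrna4, with 3 of 6 tested lower and 0 higher. Their part in the result was not tested.

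The list of nucleotide release and breakdown, which supplies and removes the ligand of P2rx7, had 0 higher and 3 lower of 10. Of all tested genes, 9.26% were higher and 6.66% lower. A link between this list and the rise of P2rx7 was not tested. Gjb1, the connexin of hepatocyte gap junctions, stood at 6.93 and 7.88 against 4.45 and 3.89 CPM (limma adjusted p 0.0071). Enpp1, which splits ATP outside the cell, stood at 23.5 and 25.7 against 17.7 and 17.5 CPM (limma adjusted p 0.0061). Entpd2, another enzyme that removes ATP, fell by 0.23 on the log2 scale (limma adjusted p 0.0282).

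Other anion channels and cotransporters gave 3 higher and 1 lower of 16, against 9.26% and 6.66% of all tested genes. Clic4, a chloride intracellular channel protein, rose from 397 and 366 to 576 and 615 CPM. The kinase gene Wnk1, which sets the activity of chloride cotransporters, rose by 0.27 and its target kinase gene Oxsr1 by 0.22 on the log2 scale (limma adjusted p 0.0186 and 0.0171). Ttyh3 fell by 0.48 on the log2 scale.

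Of the mitochondrial partners of the uniporter, 1 was higher and 1 lower of 13, against 9.26% and 6.66% of all tested genes. Mcur1, a uniporter regulator, stood at 27.7 and 26.1 against 35.8 and 34.3 CPM, and Ucp2 at 27.9 and 31.8 against 22.1 and 22.7 CPM. The list of store and leak regulators had 2 lower of 14, which were Trpa1, a TRP channel gene outside the Trpc, Trpm and Trpv names, at 43.2 and 42.3 against 30.3 and 35.8 CPM, and Efcab4a, at 5.88 and 5.62 against 3.84 and 3.86 CPM. In the phospholipase C and Gq list, 1 was higher and 1 lower of 11. The kinase gene Prkce rose by 0.43 and the phospholipase gene Plcg1 fell by 0.36 on the log2 scale, with limma adjusted p of 0.0093 and 0.0068.

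The calmodulin kinase list had 1 lower of 14, which was Eef2k, the calmodulin-dependent kinase of elongation factor 2, with a limma adjusted p of 0.0495. The calcineurin and NFAT list had 1 lower of 13, the calcineurin B homologue Chp1. Over all tested genes the share lower was 6.66%. Calcium buffers and chaperones of the endoplasmic reticulum (7 tested), exchangers (3), other cation channels (12) and sodium and proton pumps (7) had 0 calls by limma, edgeR or DESeq2, and 1, 2, 0 and 4 of them had an unadjusted limma p under 0.05. Calr, the main calcium buffer of the reticulum, stood at 903 and 951 against 855 and 852 CPM.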

How the data were processed

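In each group 2 libraries were compared, grouped by the plasmid in the labels. PolyA-selected RNA was sequenced on an Illumina instrument, per the labels' protocols, and TopHat2, HTSeq and mm10/GRCm38 are named in the submitters' processing notes. The authors deposited 1 table with a per-library signal in CPM relative to a scaled library size. Its log2 fold change and log2 mean CPM, its p-value and its adjusted p-value are the authors' own deposited values, and the log2 fold change, control over Chrna4, was turned round. Of the deposited CPM values, 100% corresponded to whole reads within 0.01 reads, and those reads were recovered.

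Values were fitted as log2(CPM + 1) with limma-trend (limma 3.58.1, R 4.3.3), over the 11298 genes whose mean reached 1 CPM, and p-values were adjusted over all of them by Benjamini-Hochberg. It had 2 residual and 9.55 prior degrees of freedom. It was also run on simulated data. These gave every gene and both groups the same dispersion, unlike the libraries here, so they do not measure its error on them. On the recovered reads edgeR 4.0.16 called 1811 genes and DESeq2 1.42.0 called 1584. Other alternatives were a pseudocount of 0.1, no filter, a minimum of 5 CPM, other scalings and each library left out. Depth was 31301396 to 32228360 reads, and since reads carry no molecular identifiers they are not independent molecules.

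The members, lists and tests were chosen with earlier results of these data known. Named are all called members, the highest in each ion group, every pump, release, store, uniporter and sensor gene, and up to 4 called genes per list. Other named genes were chosen after their values were seen. Some genes that the naming rule takes are not reported here. GENCODE M21 gave positions, with all 116 identifiers found. RefSeq held start regions for 6 of the 10 called genes.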

Additional observations from a re-analysis of the deposited data

How the results depend on the processing

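Over 35 named genes and 383 alternative values, 359 kept their side of the threshold, 17 lost it and 7 gained it. Of the values called in either fit, 0 changed sign. Among values called in neither, some did. Mcu went from -0.04 to 0.02 without Chrna4 1, and Ano6 from 0.06 to -0.04 without Control 1. P2rx7 (log2 1.35 to 1.76), Ano2 (0.70 to 0.99), Atp2b4 (-1.23 to -0.80) and Ncald (-1.19 to -0.94) passed in all 11 alternatives. With library totals 2 channel and pump genes were higher and 1 gene of the sodium, purinergic, TRP and Piezo families was called. With no filter 3 calcium and 2 potassium genes were called, where limma called 13.0% of all genes. Leaving out 1 library gave 2 to 9 higher and 2 to 9 lower genes, 0 to 1 potassium, 2 to 9 calcium, 1 to 7 chloride and 1 to 2 other genes called. In these fits the share of all tested genes called changed too, as given above, so the shift is not particular to these genes. The lone library in each fit is assumed to vary like the pair of the other group. The cause was not tested. No paired analysis was possible because the groups share only 1 replicate number. Depth limits genes under 1 CPM, where 1 read is worth 0.0308 to 0.0325 CPM.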
